A study of Macaca mulatta with 24 samples.

Results

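A set of 10 genes whose proteins are stored in the secondary and tertiary granules of neutrophils was followed in the whole blood of rhesus macaques over the first week after total body irradiation. The genes were LTF, CAMP, LCN2, CRISP3, OLFM4, PGLYRP1, CHI3L1, MMP8, MMP9 and ARG1, and every non-control probe that the scanner output named for one of these symbols was taken, which gave 15 of the 43603 probes on the array. RNA from PAXgene blood, depleted of globin transcripts, was hybridized to 24 single-colour (Cy3) Agilent arrays. The groups were 7 pre-irradiation arrays (0 Gy, replicates 1 to 7), 4 arrays at day 3 (replicates 1, 2, 4 and 7), 6 at day 5 (replicates 1, 2, 3, 4, 6 and 7) and 7 at day 7 (replicates 1 to 7), the last 3 groups after a single exposure to 4 Gy. A replicate number marks an animal, the labels give replicates 1 to 4 as males and 5 to 7 as females, and no age is given there. The labels name X-rays and put the control blood at day 0, whereas the methods of the study name 60Co gamma rays and put it some days before exposure. There was no unirradiated animal followed over the same days on these arrays, so time, repeated bleeding and irradiation cannot be told apart.

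The arrays were read in 2 scan sessions on 6 slides. The first session held 6 pre-irradiation and 6 day 7 arrays, with the arrays of an animal on the same slide, and the second held all day 3 and day 5 arrays with pre-irradiation replicate 5 and day 7 replicate 5. Day 7 and pre-irradiation arrays therefore shared slides and animals. Within the second session day 3 and day 5 had pre-irradiation replicate 5 as their only control array. The main fits compared groups without pairing, and animal, slide and session entered only as blocks in alternative fits. The share of probes well above background was 48.3 to 61.1% over the arrays, and precision is limited by how many arrays a group held. Day 7 replicate 2 was the dimmest array, raised by 2.03 on the log2 scale by the normalization, which also lifted its background. Levels below are log2 processed signals normalized to the median array. A gene was called changed when limma gave a Benjamini-Hochberg adjusted p under 0.005 over all probes tested. In whole blood, fewer cells of a type and less RNA per cell cannot be told apart.

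Neutrophils fill their granules in sequence while they mature in the marrow. The primary granules form first, the secondary (specific) granules at the myelocyte and metamyelocyte stages and the tertiary (gelatinase) granules in band cells, and the transcripts of each class are made mostly at its own stage, so that those of the secondary granules are largely shut off in segmented cells in blood. Secondary granules carry proteins that bind iron or microbial products, tertiary granules carry matrix-degrading enzymes, and some proteins, such as those of CRISP3 and ARG1, have been found in both classes or placed differently by different workers.

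The 15 probes are 60 bases long, and 5 of the genes had 1 probe and 5 had 2. The stretches below are shown because they are what the arrays read for LCN2, which carries the main rise, for LTF and CAMP, the classical secondary granule transcripts, and for CHI3L1, in lower case and 5′ to 3′, with the letters AATAAA, the usual polyadenylation signal near the 3′ end of a transcript, in capitals where a probe holds them. Positions are those of the scanner output, on the rheMac2 build. The output gives no exon or UTR annotation, and the LCN2 probes have no position there.
LTF, A_01_P1757981, chr2:90088813-90088872, plus strand: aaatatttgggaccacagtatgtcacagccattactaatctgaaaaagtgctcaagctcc
CAMP, A_01_P006172, chr2:88270568-88270627, minus strand: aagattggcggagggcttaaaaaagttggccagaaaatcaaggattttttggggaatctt
LCN2, A_01_P1701011: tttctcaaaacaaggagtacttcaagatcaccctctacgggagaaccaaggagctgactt
LCN2, A_01_P014164, 30 bases of the probe: ccttgtctgctaAATAAAcatatgccccca
CHI3L1, A_01_P1692481, 30 bases of the probe: ccacagctgctcAATAAAgtacaagagctt
The LCN2 probes thus read 2 separate stretches of the transcript, starting at bases 518 and 815 of the transcript the array was designed on, and the second ends near the polyadenylation signal. The other CAMP probe was designed on the opposite strand of chromosome 2 and was well above background on none of the 24 arrays.

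Among the 10 genes, LCN2 was called higher and CRISP3 lower, and none of the others passed the test on any day. CRISP3 passed the filter on dim probes only through the pre-irradiation arrays, and neither gene was called with a normexp background. At day 3, 1 of the 8 genes tested was called (CRISP3, lower), beside 13.5% of all named genes. At day 5, 2 of 8 were called (LCN2 higher, CRISP3 lower), beside 15.4%. At day 7, 1 of 8 was called in its brightest probe (LCN2, higher), beside 9.87%. A count of 1 or 2 of 8 is near the share of all named genes on each day. Single genes among the 8 lay from -3.30 (CRISP3, day 3) to 3.56 (MMP8, day 7) as measured, and both ends involve a group below background. The 8 genes had median log2 differences from pre-irradiation of 0.51, 0.33 and 0.58 on the 3 days in turn, and all named genes had -0.0029, -0.0043 and -0.0116. These medians were not stable: without 1 animal they ran from 0.19 to 0.71 at day 3 and from 0.11 to 0.57 at day 5, and they turned to -0.70 at day 3 with the slide as a block and to -0.27 and -0.25 at day 3 and day 5 with the scan session as a block. Both blocks rest, at these days, on 1 pre-irradiation array, replicate 5. All 3 days were compared with the same 7 pre-irradiation arrays. OLFM4, ARG1 and the opposite-strand CAMP probe were well above background on fewer than 4 arrays and were not tested.

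**Figure D1:**
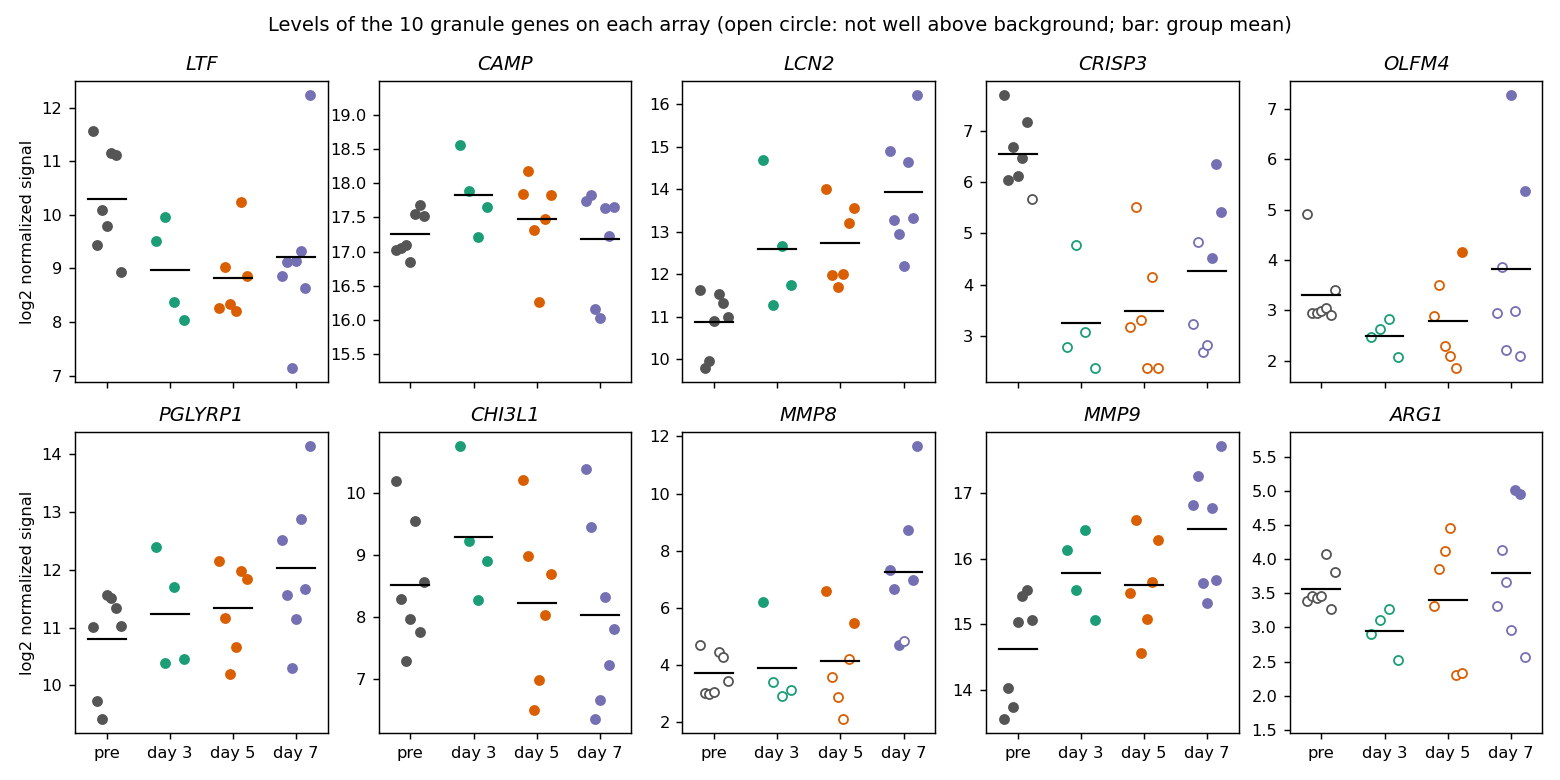
Log2 normalized signal (vertical axis, own range for each gene) of the brightest probe of the 10 genes on each of the 24 arrays, grouped by day; bars are group means and open circles are arrays on which the probe was not well above background. LCN2 is higher on all day 7 arrays than on any pre-irradiation array, CRISP3 is not well above background on any day 3 or day 5 array, and MMP8 is well above background on 6 of 7 day 7 arrays and on none of the pre-irradiation arrays.

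LCN2 encodes lipocalin 2, which binds bacterial siderophores and so withholds iron. Its brighter probe read 9.79 at the lowest, 11.00 at the median and 11.64 at the highest of the 7 pre-irradiation arrays. It read 14.70, 11.27, 12.68 and 11.74 at day 3 in replicates 1, 2, 4 and 7. It read 11.69, 12.61 and 14.00 at day 5 (lowest, median, highest of 6) and 12.19, 13.33 and 16.23 at day 7 (of 7). Thus 3 of 4 day 3 arrays and every day 5 and day 7 array stood above all pre-irradiation arrays, and the highest was day 7 replicate 7. The log2 difference from pre-irradiation was 1.72 ± 0.59 (SE, n = 4 and 7) at day 3, adjusted p = 0.0395, which is not called. It was 1.87 ± 0.43 (n = 6 and 7) at day 5, adjusted p = 0.00435, or 3.65-fold, and 3.05 ± 0.54 (n = 7 and 7) at day 7, adjusted p = 0.000813, or 8.30-fold.

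The separate LCN2 probe moved in the same direction, with log2 differences of 1.87 at day 3 (adjusted p = 0.0574), 2.17 at day 5 (0.00804) and 3.69 at day 7 (0.00106), the last equal to 12.9-fold. Only its day 7 difference was called. After each probe was centred on its own mean, the probes differed by a root mean square of 0.42 log2 units over the 24 arrays, against SDs of 1.61 and 1.97. Every animal had more LCN2 than in its own pre-irradiation blood, in 4 of 4 at day 3, 6 of 6 at day 5 and 7 of 7 at day 7, by 1.29 to 5.22 log2 units at day 7. The day 7 call held within the first scan session alone (3.04, adjusted p = 0.00332, 6 arrays a group) and without day 7 replicate 7 (2.67, adjusted p = 0.000916), and it was lost with a normexp background in place of that of the scanner software (3.01, adjusted p = 0.0126). The day 5 call ended when any 1 of the 6 animals with a day 5 array was left out (adjusted p from 0.00609 without replicate 3 to 0.0191 without replicate 7, differences 1.72 to 2.02), and with the scan session as a block the difference was 1.21, adjusted p = 0.44. It also ended with normexp (1.15, 0.251), with no filter on dim probes (0.00694), with all 4 groups in 1 fit (0.0189) and with the gene's probes averaged (2.02, 0.00638).

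CRISP3 encodes a cysteine-rich secretory protein of specific granules. Its brighter probe read 5.68 at the lowest, 6.47 at the median and 7.70 at the highest before irradiation, well above background on 6 of 7 arrays. It read 2.78, 4.77, 3.07 and 2.37 in replicates 1, 2, 4 and 7 at day 3, and 2.38, 3.24 and 5.51 at day 5 (lowest, median, highest). None of these 10 arrays was well above background, and all lay below the 6 pre-irradiation arrays that were. At day 7 it read 2.69, 4.52 and 6.36 (lowest, median, highest) and was well above background in replicates 5, 6 and 7, at 4.52, 6.36 and 5.41. Below background the values have no order, and a fold is a bound.

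By this bound CRISP3 was at least 3.43-fold lower at day 3 (log2 difference as measured -3.30 ± 0.47, adjusted p = 0.000525). At day 5 it was at least 3.69-fold lower (-3.07 ± 0.48, adjusted p = 0.000321). The bound holds only for the scanner software's background, and its pre-irradiation mean includes replicate 7, which was not well above background. At day 7 the difference was -2.29 ± 0.54, adjusted p = 0.00566, just outside the threshold. Both CRISP3 probes passed the filter on dim probes only through the pre-irradiation arrays, where the gene was high. With no filter the brighter probe was called at day 3 and day 5 as well. The dimmer CRISP3 probe, well above background on 5 of 7 pre-irradiation arrays and on 1 array at each later day, gave -2.77 (adjusted p = 0.00601), -2.73 (0.00163) and -2.62 (0.00113), called at day 5 and day 7. With so few arrays above background after irradiation, the sizes on this probe are uncertain. As measured, all animals were below their own pre-irradiation value on both probes at each day, but the later values were mostly below background. Before irradiation animal 7 was not well above background on either probe, nor animal 4 on the dimmer probe. This is therefore not a count of animals with a measured fall. At day 3 the call ended with the animal as a block (-3.14, adjusted p = 0.0106), with the scan session as a block (-3.22, 0.0688), with the slide as a block (-3.75, 0.0563) and without replicate 4 (-3.32, 0.00506). At day 5 it ended with the session as a block (-2.99, 0.0894). With a normexp background in place of that of the scanner software, the differences were -0.63 and -0.14 and neither was called. At day 7 the brighter probe was called without replicate 6 (-2.53, adjusted p = 0.00271).

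LTF encodes lactoferrin, an iron-binding protein that is among the most abundant of the specific granules. It read 8.93, 10.09 and 11.57 before irradiation (lowest, median, highest), and 9.52, 9.96, 8.38 and 8.03 at day 3 in replicates 1, 2, 4 and 7. It read 8.20, 8.60 and 10.23 at day 5 and 7.14, 9.13 and 12.24 at day 7. The groups overlapped, and the highest day 7 array, replicate 7, stood above all pre-irradiation arrays while the other 6 lay between 7.14 and 9.32. The log2 difference from pre-irradiation was -1.33 ± 0.54 at day 3 (adjusted p = 0.073), -1.48 ± 0.45 at day 5 (0.0208) and -1.09 ± 0.62 at day 7 (0.206), none of them called. LTF was below the animal's own pre-irradiation value in 3 of 4, 6 of 6 and 6 of 7 animals. Without animal 7 the day 7 difference was -1.83, adjusted p = 0.0107, and without only its day 7 array it was -1.60, adjusted p = 0.0229, so it moved by over 1.5 times with 1 animal and was still not called.

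CAMP encodes the cathelicidin precursor, from which an antimicrobial peptide is cut after release. Its level was 16.84 to 17.69 before irradiation with a median of 17.10, and 18.56, 17.89, 17.22 and 17.66 at day 3. It ran from 16.27 to 18.18 at day 5 (median 17.65) and from 16.04 to 17.83 at day 7 (median 17.65). The groups overlapped throughout. The log2 differences were 0.58 ± 0.26 (adjusted p = 0.0967), 0.23 ± 0.27 (0.543) and -0.07 ± 0.30 (0.891). At day 7, CAMP was higher than in the animal's own pre-irradiation blood in 4 animals and lower in 3, and its sign turned with quantile normalization (0.75) and without replicate 3 or replicate 4.

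PGLYRP1 encodes a peptidoglycan recognition protein that binds bacterial cell walls. It read 9.41, 11.02 and 11.56 before irradiation (lowest, median, highest), 12.40, 10.39, 11.71 and 10.46 at day 3, 10.20, 11.51 and 12.15 at day 5, and 10.30, 11.67 and 14.15 at day 7. At day 7, 5 of 7 arrays stood above all pre-irradiation arrays and replicate 7 was the highest. The log2 difference was 0.44 ± 0.51 (adjusted p = 0.52), 0.54 ± 0.42 (0.347) and 1.24 ± 0.53 (0.0932), with 6 of 7 animals above their own pre-irradiation value at day 7.

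CHI3L1 encodes a chitinase-like glycoprotein of specific granules that macrophages also make. Its brighter probe read 7.29, 8.29 and 10.20 before irradiation (lowest, median, highest), 10.76, 9.22, 8.26 and 8.90 at day 3, 6.49, 8.36 and 10.21 at day 5, and 6.34, 7.79 and 10.39 at day 7. Animal 1 had the highest level in each group. The log2 differences were 0.77 ± 0.58 (adjusted p = 0.316), -0.29 ± 0.60 (0.743) and -0.49 ± 0.61 (0.583). The overlapping second probe gave 0.58, -0.46 and -0.15, none called.

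**Figure D2:**
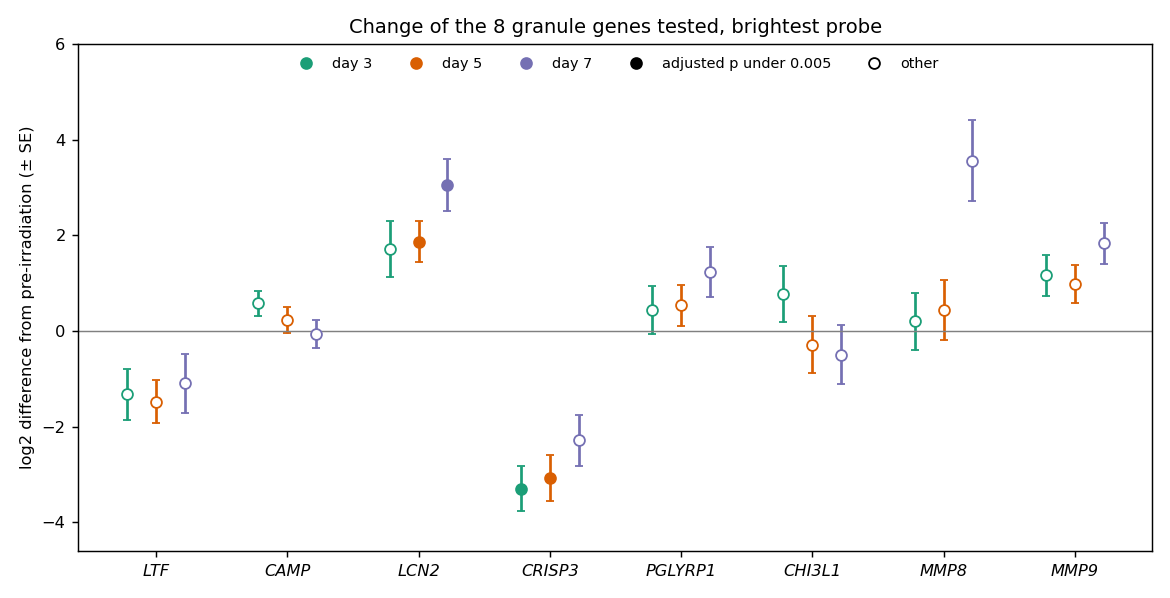
Log2 difference from pre-irradiation (vertical axis) with its SE for the brightest probe of the 8 genes tested, at day 3, day 5 and day 7; filled circles passed the adjusted p threshold of 0.005. LCN2 at days 5 and 7 and CRISP3 at days 3 and 5 are filled, while MMP8 and MMP9 at day 7, at 3.56 and 1.83, are above 0 and open. The CRISP3 and MMP8 differences involve groups below background.

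MMP8 encodes neutrophil collagenase, stored in specific granules. It was not well above background on any of the 7 pre-irradiation arrays (values of 3.01 to 4.70). At day 3 it was well above background in replicate 1 alone (6.20), and at day 5 in replicates 1 (6.58) and 7 (5.48). At day 7 it read 7.32, 6.65, 4.70, 4.85, 8.71, 6.99 and 11.67 in replicates 1 to 7 and was well above background in all but replicate 4. The day 7 arrays therefore ran from background to far above it, with the highest again in replicate 7. MMP8 was at least 3.95-fold higher at day 7 than before irradiation by this bound, with a log2 difference as measured of 3.56 ± 0.85 and an adjusted p of 0.00641, which is not called. With the animal as a block the adjusted p was 0.00466, which is called. The probe passed the filter on dim probes only through day 7, where it was high, and was set against 7 values below background, so what these arrays show is detection on 6 of 7 arrays at day 7 and on 0 of 7 before irradiation. With no filter it was not called. Without day 7 replicate 7 the difference was smaller (2.82, adjusted p = 0.00362) and was called. Within the first scan session alone it was 3.44, adjusted p = 0.0196.

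MMP9 encodes gelatinase B, the enzyme that gives the tertiary granules their name. It read 13.55, 15.04 and 15.53 before irradiation (lowest, median, highest), and 16.13, 15.53, 16.43 and 15.07 in replicates 1, 2, 4 and 7 at day 3. It read 14.56, 15.56 and 16.59 at day 5 and 15.32, 16.78 and 17.73 at day 7. At day 7, 6 of 7 arrays were above all pre-irradiation arrays, and replicate 7 was the highest. The log2 difference was 1.17 ± 0.43 at day 3 (adjusted p = 0.0529), 0.98 ± 0.40 at day 5 (0.0732) and 1.83 ± 0.43 at day 7 (0.00569, 3.56-fold), none of them called. The day 7 level was above the animal's own pre-irradiation level in 7 of 7 animals. The day 7 difference was called without replicate 4 (2.09, adjusted p = 0.00488) and without replicate 6 (2.12, 0.00461), and with quantile normalization (2.41, 0.00138).

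OLFM4 encodes olfactomedin 4, which marks only some neutrophils in humans and mice. It was not well above background on any pre-irradiation or day 3 array, and was so in day 5 replicate 7 (4.15), day 7 replicate 4 (7.27) and day 7 replicate 7 (5.37). ARG1 encodes arginase 1, which breaks down arginine. Its 2 overlapping probes were well above background only in day 7 replicates 5 (5.01) and 6 (4.95), on 1 probe. Neither gene was tested, and below background the values give no order.

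**Figure D3:**
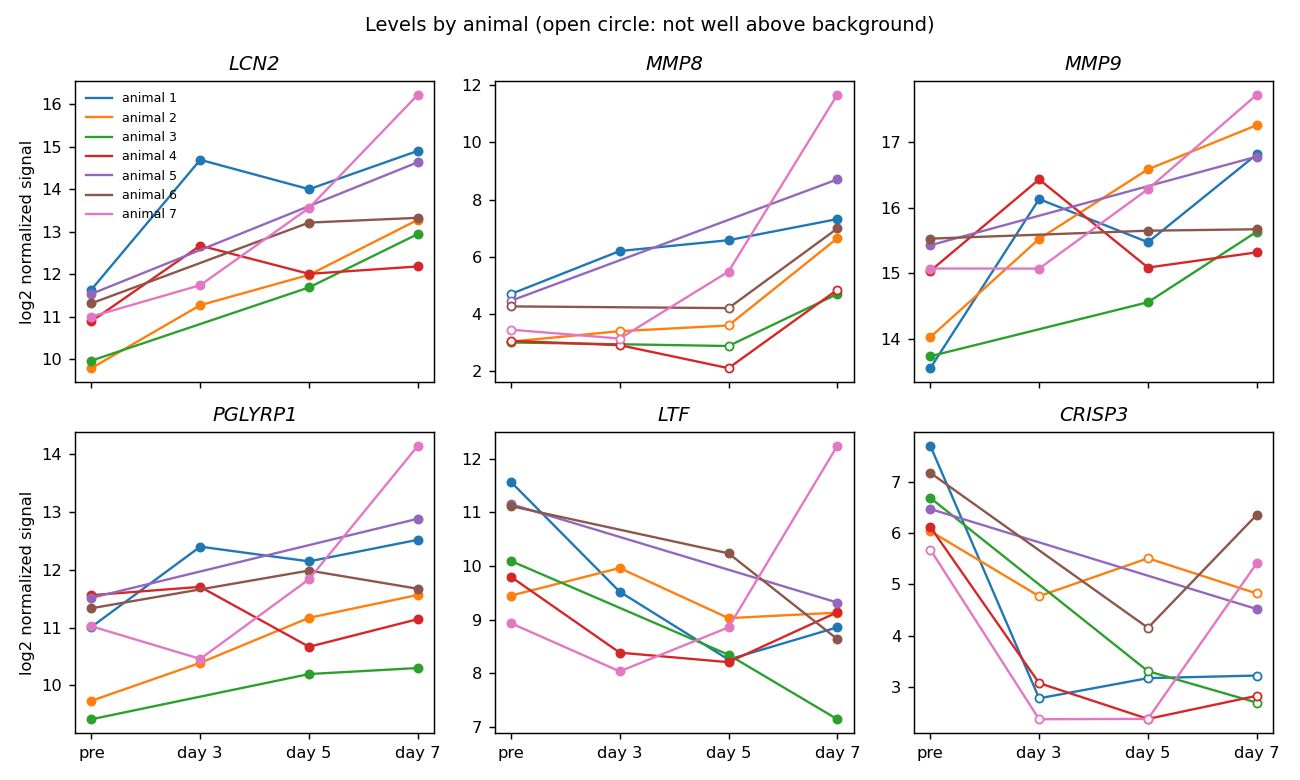
Log2 normalized signal (vertical axis) of 6 granule genes in each of the 7 animals, pre-irradiation to day 7, with the arrays of an animal joined and open circles where the probe was not well above background. Animal 7 had the highest day 7 level of LCN2 (16.23), MMP8 (11.67), MMP9 (17.73), PGLYRP1 (14.15) and LTF (12.24), and the LTF lines of the other 6 animals end between 7.14 and 9.32.

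The days were compared with each other in the same way. None of the 8 genes was called in any of these comparisons, beside 0.0368% of named genes called for day 5 against day 3, 1.63% for day 7 against day 3 and 0.0092% for day 7 against day 5 (limma, adjusted p under 0.005). At an unadjusted p under 0.05 there were 0, 1 and 1 of the 8 genes, MMP8 in both cases, beside 1211 of 10863, 3722 of 10863 and 2289 of 10866 named genes. MMP8, well above background on 1 of 4 day 3, 2 of 6 day 5 and 6 of 7 day 7 arrays, gave an adjusted p of 0.0684 for day 7 against day 3 and 0.11 against day 5, and the sizes rest mostly on background values. For LCN2 the log2 difference of day 7 was 1.33 ± 0.78 from day 3 (adjusted p = 0.258) and 1.19 ± 0.61 from day 5 (0.285), neither of them called. Day 5 and day 3, all of 1 scan session, differed by -1.06 to 0.23 log2 units over the 8 genes.

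The genes most alike to each member were found by the root mean square difference of the centred log2 levels over the 24 arrays, among 10642 named genes. This measure is a description, since arrays share animals and days. For LCN2 they were S100A12 (0.63), which encodes a calgranulin, PGLYRP1 (0.85) and VNN1 (0.85). For MMP8 they were ALPL (1.15), the neutrophil alkaline phosphatase, LCN2 (1.18) and VNN1 (1.33). For MMP9 they were PROK2 (0.45), VCAN (0.47) and PADI4 (0.47), and for PGLYRP1 they were PROK2 (0.53), GCA (0.54) and BMX (0.55). For CAMP they were LGALS3 (0.29), NMNAT3 (0.31) and SERPINE2 (0.32), and for CHI3L1 they were NLRP6 (0.71), BICDL2 (0.77) and CD9 (0.82). For LTF, GADD45A (0.93) and IMPA2 (0.93) were among the nearest, and for CRISP3 they were ZNF662 (0.99), EEF2 (1.01) and PMEPA1 (1.05). No other granule gene was among the 3 nearest to either. Among the members themselves, PGLYRP1 and MMP9 were the most alike (0.70). CRISP3 and MMP8 were each well above background on 9 of 24 arrays, so their distances rest mostly on background values.

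All day 3 calls of the gene lists below, CEBPE included, ended with the slide as a block. That block sets day 3 replicates 4 and 7 against pre-irradiation replicate 5 alone, on the same slide, so it cannot decide these calls. With the scan session as a block most calls over all probes ended at day 3 and day 5, and it rests on the same 1 control array. A list of 20 genes was chosen as others of these granules, of which 15 were tested. It gave 8 called higher and 0 lower at day 3, 7 and 0 at day 5, and 2 and 0 at day 7. Of all named genes 5.96, 6.25 and 2.68% were called higher. The 15 genes had median log2 differences of 1.33, 0.95 and 0.74. The named ones at day 3 were FCN1, a ficolin (1.84 ± 0.24, adjusted p = 0.000341), ITGAM, the CD11b integrin chain (1.73 ± 0.30, 0.0016), STXBP2, which acts in granule fusion (1.67 ± 0.19, 0.000138), and MMP25, a membrane-bound matrix metalloproteinase (1.49 ± 0.30, 0.00334). PTX3, a pentraxin of specific granules, was 1.82 ± 0.40 at day 3 (0.00507, not called) and 2.22 ± 0.30 at day 5 (9.3e-05). ITGAM was still higher at day 7 (1.69 ± 0.31, 0.00115). The list members TCN1, LYZ and VAMP2 lay below 0 on each day and were not called, and they are added here after their values were seen. TCN1, a vitamin B12 binder of specific granules, was -0.01, -2.14 and -1.52 (at least 1.61-fold lower at day 5, adjusted p = 0.00965), and LYZ, lysozyme, was -0.55, -0.61 and -0.54. VAMP2, a vesicle fusion protein, was -0.01, -0.33 and -0.29. Several of these genes, FCN1 and ITGAM among them, are also made by monocytes. CD63, called higher at day 3 (0.81 ± 0.16, adjusted p = 0.00333), is usually placed in primary granules and is named here for that reason.

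Of the primary granule genes, 9 of 12 were tested. At day 3, 1 was called higher and 1 lower, and at day 5 and at day 7, 0 were called higher and 2 lower. Of all named genes 5.96, 6.25 and 2.68% were called higher and 7.58, 9.1 and 7.2% lower on the 3 days in turn. CTSG, cathepsin G, was lower on each day, by at least 2.57-fold at day 3 (adjusted p = 0.00233) and at least 2.77-fold at day 5 (0.000302), and was called lower at day 7 (0.00219), where 1 of 7 arrays was well above background and the size is uncertain. ELANE, neutrophil elastase, passed the test at day 5 (adjusted p = 0.00422) and day 7 (0.00437) and not at day 3 (0.0111), but it was well above background on only 3 of 7 pre-irradiation arrays, 1 of 6 at day 5 and 1 of 7 at day 7, so its differences rest mostly on values without an order. Without the pre-irradiation arrays, where they were higher, neither CTSG nor ELANE would have passed the filter on dim probes. RNASE3, a ribonuclease shared with eosinophils, was higher at day 3 (1.50 ± 0.33, 0.00477). The remaining 6 did not pass on any day, and the list's median was 1.04, 0.59 and 0.59.

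Of the mature neutrophil genes, 14 of 16 were tested and 1, 2 and 2 were higher at day 3, day 5 and day 7, with none lower and medians of 0.84, 0.75 and 0.70, beside 5.96, 6.25 and 2.68% of all named genes called higher and 13.5, 15.4 and 9.87% called in either direction. They were CSF3R, the G-CSF receptor (1.72 at day 3 and 1.82 at day 5), TREM1 (1.73 at day 5), S100A8 (1.35 at day 7) and S100A12 (2.65 ± 0.45 at day 7, adjusted p = 0.000598). Of 12 granulocyte transcription factors and cytokine receptors, 10 were tested and 2, 1 and 0 were higher. CEBPE, the factor required for secondary granule genes, was higher at day 3 (1.27 ± 0.23, adjusted p = 0.00196) and was 0.35 and 0.37 at day 5 and day 7, not called. GFI1, a repressor needed for neutrophil maturation, gave 0.25, 0.15 and 0.09, not called. STAT3 was higher at day 3 (1.02) and day 5 (0.83).

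**Figure D4:**
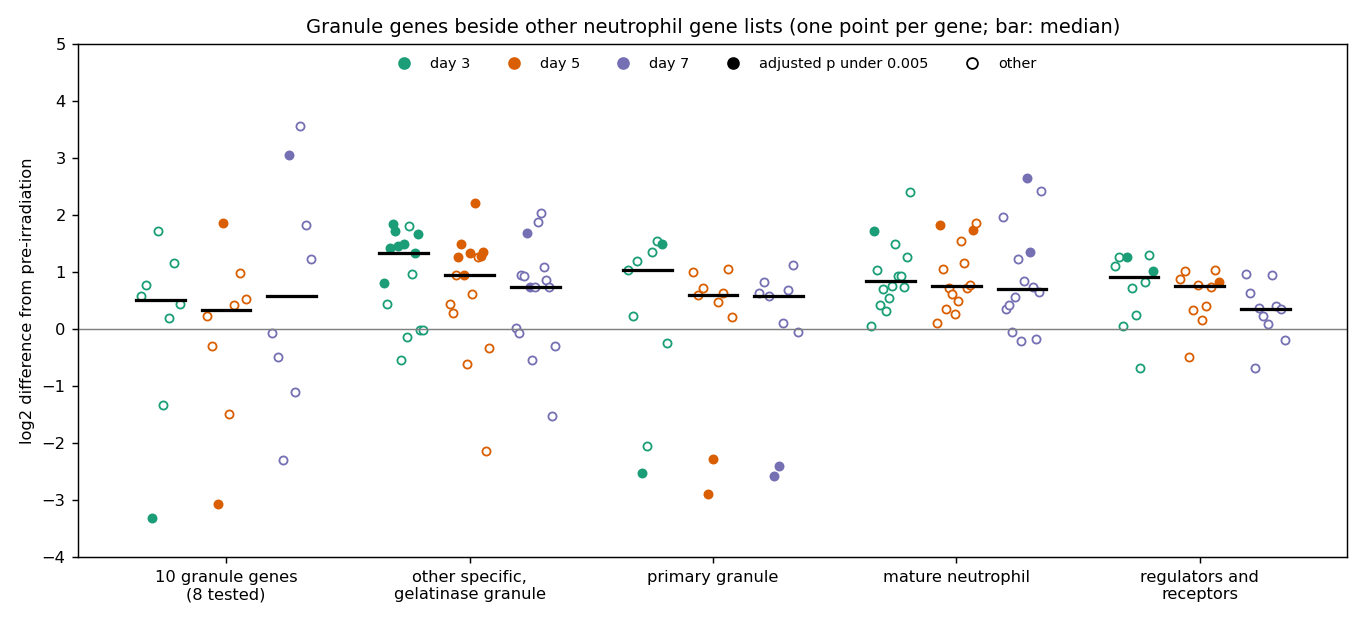
Log2 difference from pre-irradiation (vertical axis) of each tested gene of 5 lists at day 3, day 5 and day 7; bars are medians and filled circles passed the adjusted p threshold of 0.005. The 8 granule genes tested spread from -3.30 (CRISP3, day 3) to 3.56 (MMP8, day 7) as measured, and both ends involve a group below background. The other specific and gelatinase granule genes have medians of 1.33, 0.95 and 0.74.

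Markers of other blood cells moved over the same arrays, and their part in the values above was not tested. All 6 erythroid markers were lower on each day, and their summed log2 level lay between 19.00 and 20.17 on pre-irradiation arrays and, on the 3 days in turn, between 15.32 and 17.32, between 12.43 and 14.03 and between 11.32 and 18.02. All 5 tested B-cell markers were lower on each day (summed level 14.75 to 15.25 before irradiation and 11.10 to 11.96 at day 7), with PAX5 below background on every array. All 5 tested platelet markers were higher at day 3 (15.36 to 16.83 before irradiation, 18.44 to 19.16 at day 3). Of the 5 tested monocyte markers 1 was called higher at day 3, 1 at day 5 and 0 at day 7. At an unadjusted p under 0.05 (limma) there were 5, 3 and 3 on the 3 days in turn. All named genes gave 5100 of 10863, 4768 of 10866 and 4154 of 10866 at that level. The 5 markers had medians of 0.97, 0.81 and 0.87, and the lowest of them was 0.67, -0.37 and -0.76. Their summed level lay between 15.01 and 15.88 on pre-irradiation arrays. It lay between 16.43 and 17.00, between 16.07 and 16.64 and between 15.04 and 16.65 on those days. No T-cell or NK-cell marker was called at any day against pre-irradiation (T cells 1, 0 and 0 and NK cells 1, 0 and 1 at an unadjusted p under 0.05). Of 6 tested eosinophil, basophil and mast cell markers none was called on any day (limma, adjusted p under 0.005, 1 at an unadjusted p under 0.05 on each day). Of 6 proliferation genes 1 was higher and 1 lower at day 3, 1 higher at day 5 and 3 higher at day 7. Beside these marker counts, 5.96, 6.25 and 2.68% of all named genes were called higher and 7.58, 9.1 and 7.2% lower. The mature neutrophil genes summed to between 18.12 and 19.32 on pre-irradiation arrays and, on the 3 days in turn, to between 19.11 and 20.45, between 19.10 and 20.11 and between 18.69 and 19.96.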

How the data were processed

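Blood RNA of 24 samples was measured on Agilent rhesus arrays, although the methods of the study name a human design. The authors' scanner output gives the processed signal, a linear intensity with the local background subtracted, made per the file headers with Feature Extraction 12.0.2.2 (10.7 per the submitters' processing notes). The value table the authors deposited is that intensity on a log2 scale, moved by a single constant on each array and left blank for some dim spots, and it served as an alternative. Its direction needs no choice on 1-colour arrays, and no gene centring was found, since the spread of the shift within an array was 0.

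Here log2 of the processed intensity was taken, non-uniform and population outlier spots were left out, repeat spots were averaged, and arrays were aligned on a pre-irradiation array of middle brightness by the median difference over probes. Symbols came from the scanner output for 23052 probes and by accession for 885. Probes well above background on at least 4 arrays (27112) were tested with limma 3.58.1 in R 4.3.3, 1 fit for each pair of groups, two-sided, after a test on simulated data. A gene stands for its brightest probe. A bound for a dim group uses, on each array, its own signal or the faintest signal that still counted as well above background, whichever was higher. For the genes named from the lists, at most 5 called on any day were taken by the size of the change on the day with most calls, plus CEBPE and GFI1. The 3 genes most alike to each member are named, except 1 gene that is not reported here. Same-numbered arrays deviated together from their group means (r 0.132 to 0.648) and come from 1 animal by the study's sample list, so numbers pair the samples. The p-values treat animals as the replicates, and the main fits do not use their pairing across days. The members and lists were chosen with earlier results of these data known. Alternatives were the scaling, background correction, filter, outlier spots, series matrix, replicate, slide and session blocks, a fit of all groups, averaged probes and left-out animals. Figures used matplotlib 3.10.9.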

Additional observations from a re-analysis of the deposited data

Results flagged for a closer look

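In 44 sets of 1 probe in 1 group of 4 to 7 arrays, 2 held an array whose distance from the rest exceeded Dixon's critical value, and chance marks about 5% of such sets. LTF at day 7 replicate 7 read 12.24, 2.92 log2 units above the next highest of the 7 arrays, a gap of 0.573 of the group's range. MMP8 at day 3 replicate 1 read 6.20, 2.80 above the next of 4 arrays and 0.851 of the range. It was the only day 3 array on which the probe was well above background, so this gap is set against values without an order.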

How the results depend on the processing

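Over the 8 genes at 3 days, 405 of 452 alternative values kept their direction and side of the threshold, 19 lost a call, 12 gained one and 16 changed sign. Between days, 0 genes were called in every setting run. At day 3 the count of called genes, 1 as reported, was 0 with the normexp background, with a filter requiring all arrays of a group (CRISP3 then not tested), in the series matrix (CRISP3 not tested) and with the replicate, slide or session block, and 0 to 1 without 1 animal. The day 3 median of the genes was -0.70 with the slide block, and 0.19 to 0.71 without 1 animal. At day 5 the count, 2 as reported, was 0 with normexp and with the session block, and 1 with no filter (CRISP3), the stricter filter (LCN2), the series matrix (LCN2), all 4 groups in 1 fit (CRISP3) and averaged probes (CRISP3), and 1 to 2 without 1 animal. At day 7 the count, 1 as reported, was 0 with normexp, 2 with quantile normalization, the stricter filter and the series matrix (LCN2 and MMP9), 2 with the replicate block (LCN2 and MMP8), 2 with averaged probes (LCN2 and CRISP3), 4 with all 4 groups in 1 fit (LCN2, CRISP3, MMP8, MMP9), 1 to 3 without 1 animal and 2 without day 7 replicate 7 (LCN2 and MMP8, chosen after seeing the data). The replicate block changed no other call.

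Signs changed for genes that were not called. At day 3 they were CAMP (-0.11 slide block), PGLYRP1 (-0.43 slide, -0.28 session), CHI3L1 (-0.97 slide, -0.27 session) and MMP8 (-1.44 slide, -0.55 session, and -0.40 to 0.43 without 1 animal). At day 5 they were CAMP (-0.32 normexp, -0.064 session), PGLYRP1 (-0.18 session) and MMP8 (-0.32 session). At day 7 it was CAMP (0.75 quantile, 0.0855 normexp, -0.21 to 0.08 without 1 animal, 0.0769 without replicate 3). Over all probes, the counts behind the background shares, 3656, 4542 and 2954, were 139, 239 and 317 with normexp, 1622, 1754 and 1138 with averaged probes (genes rather than probes), and at day 3 762, 0 and 37 with the replicate, slide and session block. At day 5 the session block gave 385. For day 7 against day 3 they were 347 as reported, 2176 with all 4 groups in 1 fit, 6 with normexp, 78 with no filter, 546 with the stricter filter and 0 with the replicate, slide or session block. The slide block could not be fitted at day 5. The session block rests on 1 pre-irradiation array, replicate 5, for day 3 and day 5, and so does the slide block for day 3. The cause of these changes was not tested. Signals near background limit what can be said of the size of change of CRISP3, MMP8, OLFM4 and ARG1.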
